A study of Mus musculus with 32 samples.

Results

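The genes described here encode 10 ion channel subunits that are known from uterine smooth muscle: the potassium channel genes Kcnh2, Kcnma1, Kcnmb1, Kcnj8, Abcc9, Kcnk3 and Kcne4, the voltage-gated calcium channel genes Cacna1c and Cacnb2, and the chloride channel gene Ano1. They were chosen by name, with earlier results of these data known. The probes that carry these symbols were followed through pregnancy. All 10 were found among the 13439 genes tested, with 13 probes. RNA of the uterus was hybridised to 32 Illumina MouseRef-8 v2 arrays, 1 wild-type FVB/N mouse per array. The groups were 4 non-pregnant mice (NP), 4 mice of E6.5, 4 of E8.5, and 5 mice per day for E10.5, for E12.5, for E15.5 and finally for E17.5, where E is the embryonic day counted from the vaginal plug. According to the methods, NP mice were taken at random, the ages of NP and pregnant mice overlapped, and RNA samples of each mouse were pooled. In pregnant mice the tissue came from implantation sites, the embryo and placenta were removed and the decidua, the transformed lining of the pregnant uterus, was scraped off. This dissection is described for pregnant mice only, so in any comparison with NP the effects of pregnancy and dissection cannot be told apart.

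The myometrium, the muscle wall of the uterus, contracts when calcium enters its smooth muscle cells. The depolarised membrane opens voltage-gated calcium channels, calcium-activated chloride channels carry a further depolarising current, and potassium channels bring the membrane back towards rest. A potassium channel is made of pore subunits and, often, of regulatory subunits that set its gating and trafficking. For most of pregnancy the myometrium is kept relaxed, and potassium channels are known as one of the brakes that do this. Levels here are log2 intensities after background correction and quantile normalisation, a difference of 1 on this scale is a doubling, and levels of different probes are not set against each other.

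The libraries carried the defining transcripts of smooth muscle. Of 20 smooth muscle genes measured, among them Myh11, Acta2, Actg2 and Des, 14 were detected on all 32 arrays, where detected means a detection p-value of at most 0.05 against negative control beads. Between 13280 and 14357 of 25697 probes were detected per array. The uterus also holds other cells, and their genes moved with gestation. The mean over 15 leukocyte genes was 7.83 ± 0.26 at E10.5, against 6.67 ± 0.07 at E6.5, and the mean over 13 epithelial genes was 10.13 ± 0.235 at E17.5, against 7.21 ± 0.22 at E6.5 (SD over mice). In 4 libraries, E10.5 mouse 4, E12.5 mouse 3 and E17.5 mice 2 and 5, the mean over 17 placenta and yolk sac genes lay between 0.95 and 2.86 log2 above the median of their time point, and results that change without these libraries are named below. In such bulk tissue, fewer cells of a type and less RNA per cell cannot be told apart.

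Over the 6 pregnant time points, 6 of the 10 channel genes passed the moderated F test of limma at an adjusted p of at most 0.05, beside 37.9% of all genes tested. These were Kcnh2, Kcnj8, Abcc9, Kcnk3, Kcne4 and Cacnb2. Kcnmb1 (adjusted p = 0.441), Kcnma1 (0.131), Ano1 (0.167) and Cacna1c (0.843) did not pass. The mean of Kcnh2 differed by up to 1.84 log2 between pregnant time points, that of Kcnj8 by 1.27, that of Ano1 by 1.21, that of Cacnb2 by 1.03 and that of Abcc9 by 0.87. Kcnk3 was detected in 2 of the 28 pregnant mice only, so its test compared values near background. In Kcnh2, Kcnj8, Abcc9 and Kcne4 the lowest mean of pregnancy was that of E10.5, and in Cacnb2 that of E12.5. For Kcne4 the means of E8.5 (9.83) and E10.5 (9.82) were nearly equal. Its difference at E10.5 against E6.5 was not called (-0.37, limma adjusted p = 0.273).

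**Figure D1:**
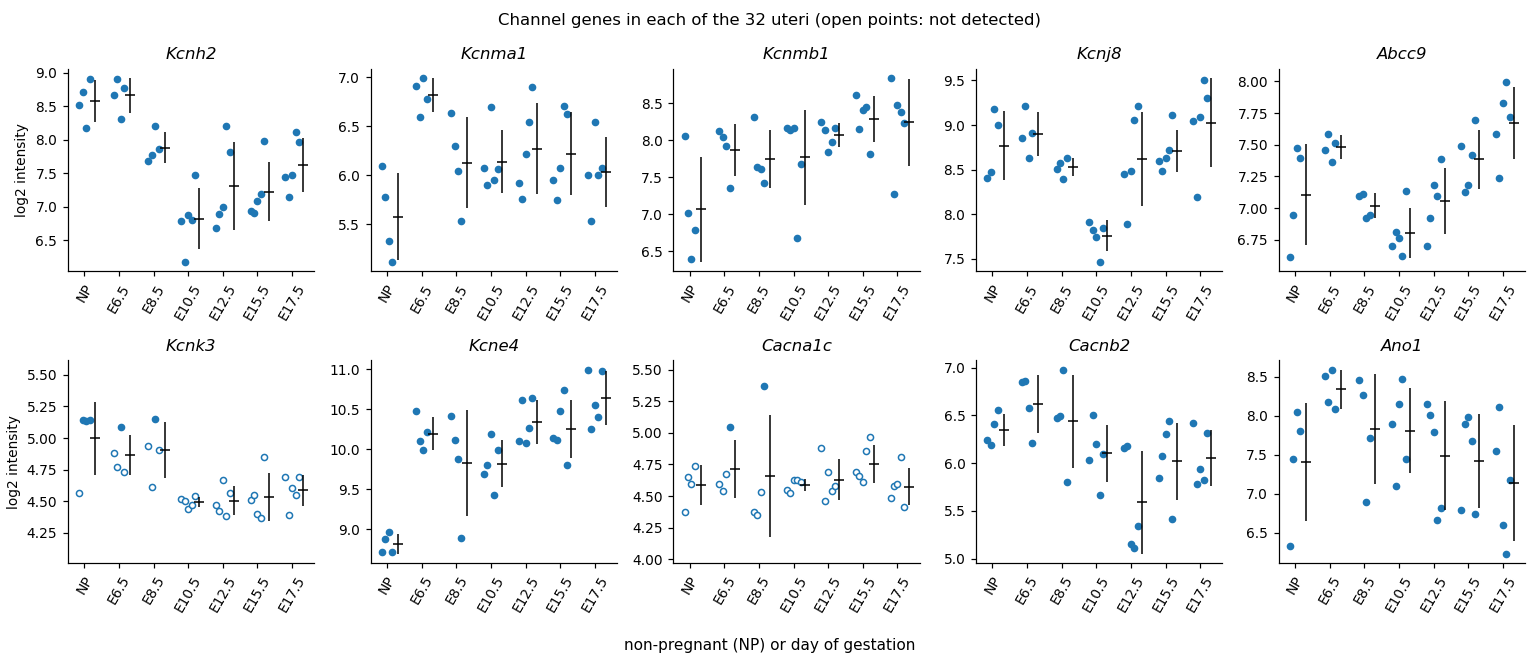
Level of the 10 channel genes (log2 intensity, y axis, a scale per gene) in each of the 32 mice over NP and E6.5 to E17.5 (x axis). Filled points are detected, open points are not, and the bar beside each group is its mean with SD. The 5 E10.5 mice lie below all E6.5 mice in Kcnh2, Kcnj8, Abcc9 and Kcnk3, the last near background. All 4 NP mice lie below all E6.5 mice in Kcne4, Kcnma1 and Ano1, the last not called. The share of all genes without overlap between these groups was not counted.

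Pairwise comparisons were called at a Benjamini-Hochberg adjusted p of at most 0.05 (limma, later minus earlier). At E6.5 against NP, 2 of 10 channel genes were higher (Kcnma1 and Kcne4) and 0 were lower, where 4.58% of all genes were higher and 3.62% lower. At E8.5 against E6.5 no channel gene was called, with 2.14% of all genes higher and 1.7% lower. The 10 genes then had a median difference of -0.37 log2, against -0.02 over all genes. At E10.5 against E8.5, 0 of the 10 were higher and 2 were lower (Kcnh2 and Kcnj8), beside 2.25% and 2.38% of all genes. At E12.5 against E10.5, 1 was higher (Kcnj8) and 0 were lower, beside 0.625% and 0.729%. At E15.5 against E12.5 none was called, beside 0.878% of all genes higher and 0.558% lower. At E17.5 against E15.5 none was called either, beside 0.305% higher and 0.141% lower.

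Over the longer intervals more genes were called in the whole table as well. These intervals were added with earlier results of these data known. The reason was that several of the 10 genes were lowest at mid-pregnancy or differed between both ends of the course. The counts below are thus not independent of the values that led to the choice of intervals. At E10.5 against E6.5, 5 of the 10 were lower (Kcnh2, Kcnma1, Kcnj8, Abcc9 and Kcnk3) and 0 were higher, beside 12.6% of all genes lower and 9.75% higher. The call of Kcnk3 rests on values near background, since its probe was detected in 0 of 5 E10.5 mice and 1 of 4 E6.5 mice, which leaves 4 called genes with a measured level at both time points. The median difference of the 10 was -0.53 log2, against -0.02 over all genes. At E17.5 against E10.5 the calls lay on the other side: 4 were higher (Kcnh2, Kcnj8, Abcc9 and Kcne4) and 0 were lower, beside 8.96% of all genes higher and 9.35% lower, with medians of 0.28 log2 for the 10 genes and -0.01 for all. At E17.5 against E6.5, 0 were higher and 3 were lower (Kcnh2, Kcnma1 and Ano1), beside 12.3% of all genes higher and 17% lower. At E17.5 against NP, 3 were higher (Kcnmb1, Abcc9 and Kcne4) and 2 were lower (Kcnh2 and Kcnk3), beside 14% higher and 19.1% lower, and Kcnk3 was detected in none of these E17.5 mice. The comparisons share mice and are not independent of each other.

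**Figure D2:**
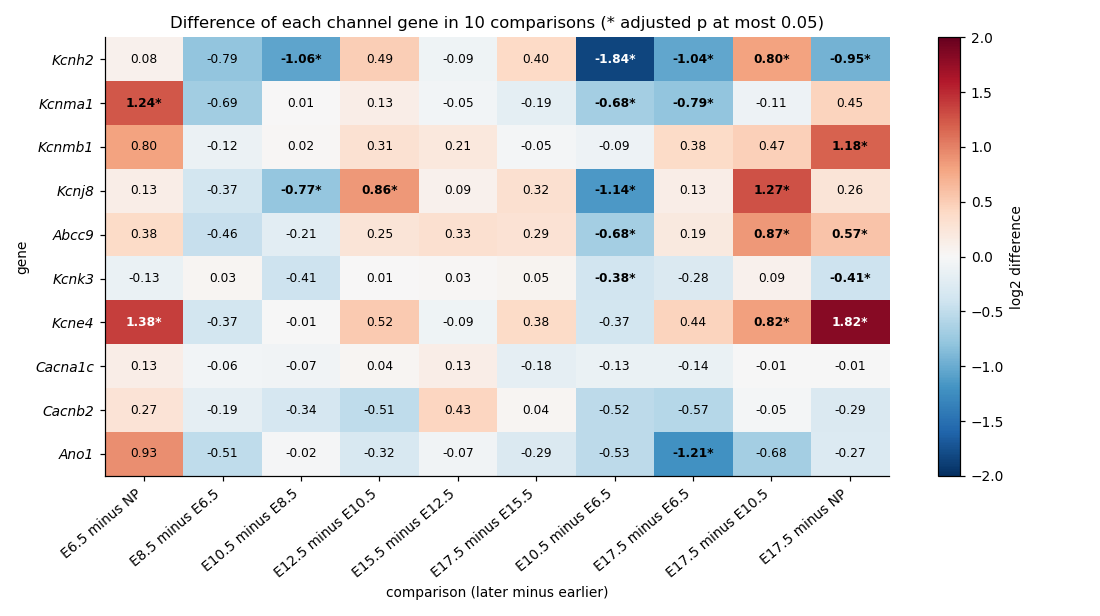
Log2 difference (later minus earlier, colour and printed value) of the 10 channel genes (rows) in 10 comparisons (columns). An asterisk marks an adjusted p of at most 0.05 over 13439 genes. The 5 asterisks at E10.5 minus E6.5 are all on negative values, that of Kcnk3 near background, and the 4 at E17.5 minus E10.5 are all on positive values.

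Kcnh2 encodes the pore of the ERG channel, a voltage-gated potassium channel known for repolarising the heart and also present in the myometrium. It lies on chromosome 5 (24319589 to 24351684, GRCm38.p6). Its level was 8.52, 8.72, 8.18 and 8.90 in the NP mice and 8.66, 8.91, 8.30 and 8.78 at E6.5. The E8.5 mice had 7.68, 7.77, 8.21 and 7.87. At E10.5 it was 6.78, 6.17, 6.88, 6.80 and 7.47, and all 5 of these lay below every mouse of the earlier groups. At E12.5 the mice spread widely, with 6.67, 6.89 and 7.00 in mice 1 to 3 and 8.20 and 7.81 in mice 4 and 5. The level was 6.94, 6.91, 7.09, 7.18 and 7.99 at E15.5 and 7.45, 7.14, 7.47, 8.12 and 7.96 at E17.5. Kcnh2 was thus 3.59-fold lower at E10.5 than at E6.5 (log2 difference -1.84, SE 0.275, limma adjusted p = 1.27e-05). The fall of 1.06 from E8.5 alone also passed (SE 0.275, adjusted p = 0.0239). At E17.5 it was 1.75-fold higher than at E10.5 (log2 difference 0.80, adjusted p = 0.0273), and these groups overlap. It was still 2.05-fold lower at E17.5 than at E6.5 (-1.04, adjusted p = 0.00432) and 1.94-fold lower than in NP (-0.95, adjusted p = 0.00734), with no E17.5 mouse reaching the lowest mouse of either group. At E6.5 against NP the difference was 0.08 (95% interval -0.51 to 0.68). Without background correction the differences were smaller, -1.18 at E10.5 against E6.5 and 0.50 at E17.5 against E10.5, and still called.

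The second Kcnh2 probe was called in the same comparisons and directions. It stood at 7.46 ± 0.16 at E10.5, against 9.08 ± 0.33 at E6.5 (SD, n = 5 and 4), a difference of -1.63 log2 (SE 0.233, adjusted p = 8.17e-06 over 20169 probes). It too was lower at E10.5 than at E8.5 (-0.99, adjusted p = 0.013) and higher at E17.5 than at E10.5 (0.74, adjusted p = 0.0171). Without the 4 libraries high in placenta and yolk sac genes, the fall between E8.5 and E10.5 and the rise between E10.5 and E17.5 no longer passed (adjusted p = 0.0517 and 0.0821). The fall was also lost without E8.5 mouse 3, E8.5 mouse 4 or E10.5 mouse 2, and the rise without E10.5 mouse 1, E10.5 mouse 2, E17.5 mouse 4 or E17.5 mouse 5 (adjusted p up to 0.0986 and 0.106).

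The promoter of Kcnh2 that the RefSeq table holds is shown because this gene changed most of the 10 within pregnancy. Capitals mark GC boxes, GGGCGG read on either strand, to which factors of the SP family bind. The window runs from 250 bases before to 50 bases after the annotated start, on the minus strand of chr5:24329542-24329841 (GRCm38.p6). This start lies inside the span of the gene, so the window is that of an internal start.
Kcnh2: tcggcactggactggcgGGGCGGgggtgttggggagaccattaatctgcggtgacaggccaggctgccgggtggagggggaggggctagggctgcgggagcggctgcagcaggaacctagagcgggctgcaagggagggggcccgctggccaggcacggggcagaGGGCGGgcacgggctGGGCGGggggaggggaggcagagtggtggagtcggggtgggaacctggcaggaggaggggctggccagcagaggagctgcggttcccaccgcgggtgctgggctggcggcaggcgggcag
It holds 3 GC boxes, and 35.7% of 32851 promoter windows of this length hold at least 1. The window has 74.3% G and C, and neither a CArG box, the site of serum response factor in muscle genes, nor a TATAAA is spelled in it. A CArG box was spelled in 1.63% and TATAAA in 13.6% of all windows.

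Kcnj8 and Abcc9 together make the ATP-sensitive potassium channel of smooth muscle: Kcnj8 encodes the inward rectifier pore and Abcc9 the sulfonylurea receptor around it. The channel opens when cellular ATP falls and relaxes muscle. Kcnj8 stood at 8.40, 8.47, 9.18 and 9.01 in the NP mice and at 8.85, 9.21, 8.63 and 8.91 at E6.5. The E8.5 mice had 8.51, 8.57, 8.39 and 8.63. At E10.5 it was 7.91, 7.82, 7.75, 7.47 and 7.84, below every mouse of the NP, E6.5 and E8.5 groups. At E12.5 it was 8.45, 7.89, 8.48, 9.06 and 9.21, at E15.5 8.60, 8.49, 8.63, 8.72 and 9.11, and at E17.5 9.04, 8.19, 9.09, 9.51 and 9.30. The level at E10.5 was thus the low point, with 2.21-fold less than at E6.5 (log2 difference -1.14, SE 0.228, adjusted p = 0.00043). At E17.5 it was 2.41-fold higher than at E10.5 (1.27, SE 0.215, adjusted p = 6.34e-05), and every E17.5 mouse was above every E10.5 mouse. Between E17.5 and E6.5 the difference was 0.13 (95% interval -0.34 to 0.59, adjusted p = 0.747).

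The steps on either side of E10.5 were less firm for Kcnj8. The log2 differences were -0.77 at E10.5 against E8.5 (adjusted p = 0.0479) and 0.86 at E12.5 against E10.5 (adjusted p = 0.04). The first lost its call without any 1 of the 9 mice (adjusted p 0.0599 to 0.121), and the second without any 1 of 9 of the 10 mice, E12.5 mouse 2 being the exception (adjusted p up to 0.139). Without the 4 libraries high in placenta and yolk sac genes neither step passed.

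Abcc9, like Kcnj8, was called lower at E10.5 than at E6.5 and higher at E17.5 than at E10.5, but the single steps around E10.5 did not pass (adjusted p = 0.558 and 0.588), and the courses of the 2 genes were not tested against each other. Its level was 6.62, 6.94, 7.47 and 7.40 in the NP mice and 7.46, 7.59, 7.37 and 7.52 at E6.5. The E8.5 mice had 7.10, 7.11, 6.92 and 6.94. At E10.5 it was 6.70, 6.81, 6.76, 6.63 and 7.14, and all 5 lay below the lowest E6.5 mouse. At E12.5 it was 6.70, 6.92, 7.19, 7.10 and 7.39, at E15.5 7.49, 7.13, 7.18, 7.42 and 7.69, and at E17.5 7.58, 7.24, 7.83, 8.00 and 7.72. Abcc9 was 1.6-fold lower at E10.5 than at E6.5 (log2 difference -0.68, SE 0.165, adjusted p = 0.00303). It was 1.82-fold higher at E17.5 than at E10.5 (0.87, SE 0.155, adjusted p = 0.00013), with no overlap, and 1.48-fold higher than in NP (0.57, adjusted p = 0.00791), with overlap. Without background correction these differences were -0.37, 0.49 and 0.33, all still called. The last of these calls was lost without NP mouse 1 (adjusted p = 0.0592) and when only NP and E17.5 mice were fitted (adjusted p = 0.0754). A second Abcc9 probe was detected on 2 arrays only and gave no call, with -0.25 at E10.5 against E6.5 (adjusted p = 0.166) and 0.33 at E17.5 against E10.5 (adjusted p = 0.0501).

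Over the 32 mice the Pearson correlation of Kcnj8 and Abcc9 was 0.817, and Kcnj8 was the closest of all 13438 other genes to Abcc9, while Abcc9 was the 4th closest to Kcnj8. This is a description: the points share time points, arrays and tissue composition. Both genes stand on chromosome 6 on the minus strand, Kcnj8 at 142564837 to 142571614 and Abcc9 at 142587862 to 142702766 (GRCm38.p6), with 16247 bases between them, in which no other gene of the table starts. Their promoter windows, chr6:142571565-142571864 for Kcnj8 and chr6:142702225-142702524 for Abcc9, both on the minus strand of the same build and from RefSeq, are set side by side because the 2 genes are neighbours with calls at E10.5 against E6.5 and at E17.5 against E10.5. The Abcc9 window lies wholly inside the span of that gene given above, so it is that of an internal start. GC boxes are again in capitals.
Kcnj8: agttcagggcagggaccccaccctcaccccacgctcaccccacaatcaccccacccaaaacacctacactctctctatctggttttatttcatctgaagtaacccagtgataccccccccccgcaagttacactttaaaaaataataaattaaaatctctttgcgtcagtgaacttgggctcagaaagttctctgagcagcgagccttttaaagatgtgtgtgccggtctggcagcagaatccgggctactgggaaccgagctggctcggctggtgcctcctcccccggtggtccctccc
Abcc9: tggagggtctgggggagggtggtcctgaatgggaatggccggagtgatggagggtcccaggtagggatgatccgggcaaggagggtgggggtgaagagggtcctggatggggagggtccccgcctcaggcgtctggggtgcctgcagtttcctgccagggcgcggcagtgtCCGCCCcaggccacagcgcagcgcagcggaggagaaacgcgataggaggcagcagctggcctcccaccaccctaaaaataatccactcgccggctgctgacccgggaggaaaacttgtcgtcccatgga
The Kcnj8 window holds no GC box and has 53.3% G and C, while the Abcc9 window holds 1 and has 65.7%. Abcc9 also spells CATTCC, the core of the MCAT motif of muscle genes, on the reverse strand, which 14.7% of all windows do on either strand. Neither window spells a CArG box, and none of the 12 windows of 9 channel genes spells the oestrogen response element GGTCANNNTGACC, which is in 0.07% of all windows.

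**Figure D3:**
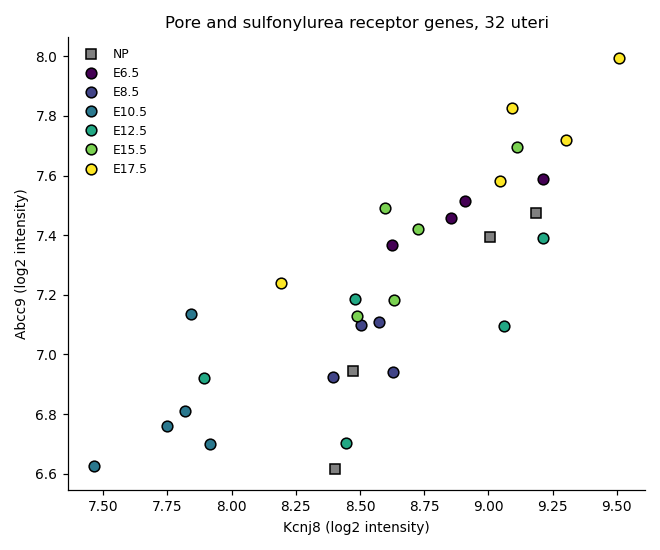
Abcc9 (y axis) against Kcnj8 (x axis), both in log2 intensity, with 1 point per mouse and the colour giving the time point. The E10.5 mice lie at the lower left, with Kcnj8 from 7.47 to 7.91, and 4 of the 5 E17.5 mice at the upper right, with Kcnj8 from 9.04 to 9.51.

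Kcnma1 encodes the pore of the large-conductance calcium-activated potassium channel, and Kcnmb1 the beta subunit that raises its sensitivity to calcium in smooth muscle. Kcnma1 was higher at E6.5, with 6.91, 6.60, 7.00 and 6.78, than in NP, with 6.09, 5.78, 5.33 and 5.11, and the groups did not overlap. The difference was 1.24 log2 or 2.37-fold (SE 0.264, adjusted p = 0.00194). Without background correction the difference was 0.48 log2, still called, so its size depends on that step. Afterwards the mean stood between 6.03 and 6.27, with 6.00, 5.54, 6.54, 6.00 and 6.08 in the E17.5 mice. At E17.5 it was 1.73-fold lower than at E6.5 (-0.79, SE 0.251, adjusted p = 0.0166), and this call was lost without E6.5 mouse 3, E17.5 mouse 2 or the 4 libraries high in placenta and yolk sac genes (adjusted p up to 0.123). At E10.5 the level was 6.08, 5.90, 6.70, 5.96 and 6.06, and the difference from E6.5 of -0.68 passed narrowly (adjusted p = 0.0491). It failed without any 1 of 8 of the 9 mice, E10.5 mouse 3 being the exception.

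Kcnmb1 was called only at E17.5 against NP, and whether its course differs from that of its pore was not tested. Its level was 8.06, 7.02, 6.40 and 6.78 in the NP mice, and the pregnant groups had means of 7.86, 7.75, 7.77, 8.08, 8.29 and 8.24 from E6.5 to E17.5. At E17.5 the mice had 8.85, 7.27, 8.48, 8.38 and 8.24. This was 2.26-fold higher than in NP (log2 difference 1.18, SE 0.307, adjusted p = 0.00327), although NP mouse 1 lay above E17.5 mouse 2. Without background correction it was 0.73, still called. Within pregnancy no comparison of Kcnmb1 passed. Between E10.5 and E6.5 the difference was -0.09 (95% interval -0.72 to 0.53), so a change of a size within that interval is not excluded.

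Kcne4 encodes a single-span regulatory subunit that is known to inhibit several voltage-gated potassium channels. Its level was 8.72, 8.89, 8.96 and 8.72 in the NP mice and 10.48, 10.10, 10.00 and 10.22 at E6.5, without overlap. It was 10.42, 10.11, 9.89 and 8.90 at E8.5 and 9.69, 9.81, 10.20, 9.42 and 10.00 at E10.5. Later it stood at 10.11, 10.62, 10.08, 10.27 and 10.64 at E12.5, at 10.14, 10.12, 10.47, 10.74 and 9.80 at E15.5 and at 11.00, 10.25, 10.56, 10.40 and 10.98 at E17.5. Kcne4 was 2.6-fold higher at E6.5 than in NP (log2 difference 1.38, SE 0.24, adjusted p = 0.000218) and 3.53-fold higher at E17.5 than in NP (1.82, SE 0.227, adjusted p = 3.03e-07). The second of these had the smallest adjusted p of all comparisons of the 10 genes. At E17.5 it was also 1.76-fold higher than at E10.5 (0.82, adjusted p = 0.00651), with every E17.5 mouse above every E10.5 mouse, but without the 4 libraries high in placenta and yolk sac genes the adjusted p was 0.0579. Its F test over pregnancy (adjusted p = 0.0197) was lost without the same libraries (0.0784) and without E17.5 mouse 1 or E17.5 mouse 5.

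Kcnk3 encodes an acid-sensitive tandem-pore channel that carries background potassium current. Its probe was near the limit of detection. It was detected in 3 of 4 NP mice, 1 of 4 at E6.5 and 1 of 4 at E8.5, and in none of the 20 mice from E10.5 onwards. The measured means were 4.49 ± 0.04 at E10.5, against 4.87 ± 0.16 at E6.5 (SD, n = 5 and 4), and the fit gave -0.38 log2 (adjusted p = 0.0261). At E17.5 the mean was 4.59 ± 0.12, against 5.00 ± 0.29 in NP (SD, n = 5 and 4), a fitted difference of -0.41 (adjusted p = 0.00978). Because the later groups have only an upper bound and the probe entered the table through the early arrays, no fold is given. The E10.5 call was lost without E6.5 mouse 1 or E6.5 mouse 3 (adjusted p up to 0.114), and both calls without the 4 libraries high in placenta and yolk sac genes (adjusted p = 0.053 and 0.0509). With cyclic loess the E10.5 call was lost too (adjusted p = 0.0609). The call against NP was lost when only NP and E17.5 mice were fitted (adjusted p = 0.0683). The F test (adjusted p = 0.0131) likewise compared values of which 2 in 28 were detected, so the fitted differences describe background-level signal and no course is read from them.

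Of the calcium channel genes, Cacna1c, which encodes the L-type pore that carries most of the calcium current of uterine muscle, was not measurable with its probe. It was detected in 1 E6.5 and 1 E8.5 mouse out of 32, and its group means lay between 4.58 and 4.76, so nothing can be said of its course. Cacnb2 encodes a beta subunit that brings the L-type pore to the membrane, and the probe used was detected in all 32 mice. Its level was 6.24, 6.19, 6.41 and 6.56 in NP, 6.85, 6.86, 6.58 and 6.21 at E6.5 and 6.47, 6.497, 6.98 and 5.80 at E8.5. It was 6.03, 6.501, 6.21, 5.67 and 6.10 at E10.5. At E12.5 the mice split into 6.16 and 6.18 in mice 1 and 2 and 5.15, 5.11 and 5.34 in mice 3, 4 and 5. At E17.5 it was 6.42, 5.78, 5.94, 5.82 and 6.32. The F test over pregnancy passed (adjusted p = 0.0139) and was lost without the 4 libraries high in placenta and yolk sac genes (0.053). None of the pairwise comparisons made passed. The nearest of these was -0.57 log2 at E17.5 against E6.5 (95% interval -1.06 to -0.07, adjusted p = 0.0813). The time points with the highest mean, E6.5 (6.62), and the lowest, E12.5 (5.59), were not compared with each other. A second Cacnb2 probe, detected on 7 arrays, did not pass the F test (adjusted p = 0.43), and its differences had the opposite sign at E12.5 against E10.5 (0.11, against -0.51 in the probe used) and at E15.5 against E12.5 (-0.25, against 0.43).

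Ano1 encodes a calcium-activated chloride channel. The gene is also the standard marker of interstitial cells of Cajal in the gut. It stood at 8.51, 8.18, 8.60 and 8.08 at E6.5, all above the 6.33, 7.44, 8.05 and 7.81 of the NP mice, but this difference of 0.93 log2 did not pass (SE 0.423, adjusted p = 0.209). After E6.5 the spread between mice was wide, with 7.90, 7.09, 8.15, 8.47 and 7.44 in the E10.5 mice and 7.55, 8.11, 6.60, 6.23 and 7.18 in the E17.5 mice. At E17.5 Ano1 was 2.31-fold lower than at E6.5 (-1.21, SE 0.402, adjusted p = 0.0221), although E17.5 mouse 2 lay within the E6.5 range. Without background correction the difference was -0.75, still called. The call was lost without E6.5 mouse 1, E6.5 mouse 3, E17.5 mouse 3 or E17.5 mouse 4 (adjusted p up to 0.0741). Among 6 measured markers of interstitial cells of Cajal and telocytes, 3 were lower at E17.5 than at E6.5 (Pdgfra, Gja1 and Thbs4) and 0 were higher, beside 17% and 12.3% of all genes. The mean over these 6 was 7.66 ± 0.15 at E17.5, against 8.06 ± 0.10 at E6.5 (SD over mice). Thbs4 was detected in 2 of 4 E6.5 mice and 0 of 5 E17.5 mice, so it was at least 1.16-fold lower and its call rests on values near background. The paper links the gap junction protein of Gja1 to connectivity between uterine muscle cells, so a lower Gja1 need not come from interstitial cells. The part of interstitial cells and telocytes in the Ano1 result was not tested.

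Several libraries carried the spread of more than 1 channel gene. E17.5 mouse 2 had the lowest level of its time point in Kcnh2, Kcnma1, Kcnmb1, Kcnj8, Abcc9, Kcne4 and Cacnb2 and the highest in Ano1. Its mean over the smooth muscle genes was 0.51 log2 below the median of the time point, and its mean over the placenta and yolk sac genes 2.86 above. E10.5 mouse 4 had the lowest Kcnmb1, Kcnj8, Abcc9, Kcne4 and Cacnb2 and the highest Ano1 of its time point, with smooth muscle 0.23 below and placenta and yolk sac 2.57 above the median. At E12.5, mice 4 and 5 had the highest Kcnh2, Kcnma1 and Kcnj8 and the lowest Ano1, with smooth muscle genes 0.32 and 0.22 above and leukocyte genes 0.74 and 0.54 below the median. These libraries were noted after their values were seen, and the part of tissue composition in their channel levels was not tested.

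The low point at E10.5 was set beside the genes of the cells that carry these channels. The mean over 20 smooth muscle genes was 9.34 ± 0.13 at E10.5, against 9.68 ± 0.07 at E6.5 (SD over mice), and 7 of the 20 were lower while 0 were higher, beside 12.6% and 9.75% of all genes. Their median difference was -0.29 log2. Of the 4 with the smallest F test adjusted p, Pcp4 differed by -1.13, Tpm2 by -1.03, Smtn by -1.03 and Lmod1 by -0.66. Pcp4 was detected in 1 of the E10.5 mice. These 4 were picked for their change over pregnancy and do not stand for the list. Myh11, Acta2, Actg2 and Des had E10.5 means of 13.12, 13.43, 14.02 and 13.84, against 13.79, 13.66, 14.18 and 13.79 at E6.5. Of these, Myh11 passed the F test (adjusted p = 0.0302) and the others did not (0.331, 0.389 and 0.867). Over 10 genes of pericytes and vascular smooth muscle, where Kcnj8 and Abcc9 are known to be abundant, the mean was 7.86 ± 0.05 at E10.5, against 8.24 ± 0.07 at E6.5. Of these, 3 were lower, 0 were higher and the median difference was -0.335 log2. At E17.5 against E10.5, 2 smooth muscle genes were higher and 0 lower, with a median of 0.05 (8.96% and 9.35% of all genes), and 0 of the 10 pericyte and vascular genes passed in either direction, with a median of 0.09. Over the same interval the median of the 10 channel genes was 0.28, with Kcnk3 and Cacna1c, detected in no E10.5 or E17.5 mouse, among the 10. The called ones differed by 1.27 (Kcnj8), 0.87 (Abcc9), 0.82 (Kcne4) and 0.80 (Kcnh2). These were picked by passing this comparison, so they are not to be set against the marker medians. Of the 4 smooth muscle genes with the smallest F test adjusted p, Lmod1 differed by 0.84 (called, limma adjusted p = 0.00237). Smtn differed by 0.45, Tpm2 by -0.14 and Pcp4, near background, by -0.24. The leukocyte mean was 6.91 ± 0.08 at E17.5, against 7.83 ± 0.26 at E10.5, and 8 of 15 leukocyte genes were lower. The epithelial mean was 10.13 ± 0.235 at E17.5, against 8.21 ± 0.37 at E10.5 (SD over mice), and 10 of 13 epithelial genes were higher, with a median of 1.76 log2. At E10.5 against E6.5, 9 of the 15 leukocyte genes and 4 of the 13 epithelial genes were higher and none of either list was lower. At E6.5 against NP, 5 of the 20 smooth muscle genes were higher and 0 lower. Of 15 endothelial genes, 8 were higher and 1 lower. Of the 13 epithelial genes, 0 were higher and 9 lower, beside 4.58% and 3.62% of all genes. At E17.5 against NP, 7 smooth muscle, 6 endothelial and 5 epithelial genes were higher and 4, 1 and 0 lower, beside 14% and 19.1%. The part of a changing share of these cells in the channel levels was not tested.

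**Figure D4:**
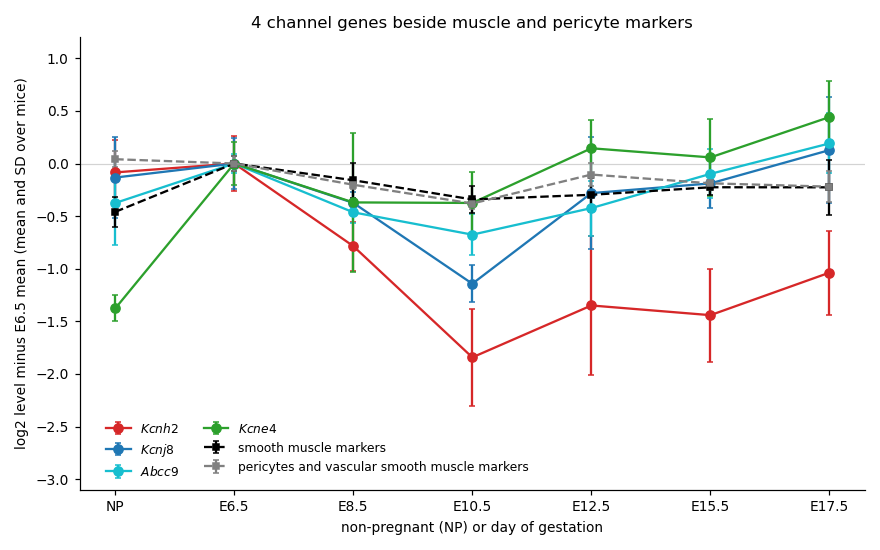
Level of 4 channel genes (solid lines) and mean over 20 smooth muscle genes and 10 pericyte and vascular smooth muscle genes (dashed), as the log2 difference from the E6.5 mean (y axis) over NP and gestation (x axis), with SD over the mice. At E10.5 Kcnh2 is 1.84 and Kcnj8 1.14 below E6.5, and the marker means are 9.34 against 9.68 and 7.86 against 8.24. At E17.5 Kcnh2 stays below E6.5, while Kcnj8, Abcc9 and Kcne4 do not.

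For each channel gene the 3 genes with the most similar course over the 32 mice were taken, as a description by Pearson correlation. Kcnh2 ran most closely with Mrvi1 (0.943), which encodes a partner of the cGMP-dependent kinase in smooth muscle, with Palld (0.935), which encodes the actin-associated protein palladin, and with Epb41l1 (0.92). Kcnj8 ran with Aplp2 (0.838), Atp6v1g2 (0.837) and Rgs9 (0.835), and Abcc9, after Kcnj8, with Ptpro (0.807) and Aplp2 (0.806). Aplp2 was thus on both lists. Kcne4 ran with Art3 (0.826), Rasl11b (0.826) and Fgf7 (0.825), the last of which encodes a growth factor made by stroma. Kcnmb1 ran with Clec10a (0.878), which encodes a lectin of macrophages, Adam9 (0.837) and Rsu1 (0.835), and Cacnb2 with Zhx1 (0.806), Anks6 (0.796) and Ppp1r14a (0.776), which encodes an inhibitor of myosin phosphatase in smooth muscle. Kcnma1 (highest 0.732, Eppk1), Ano1 (highest 0.753, Dkk3) and the barely detected Cacna1c (highest 0.639, Ifna16) had less similar partners, and those of Kcnk3 (highest 0.854, Tnfsf13b) rest on a probe near background. The closest relation within the set, after Kcnj8 and Abcc9, was that of Kcnmb1 and Kcne4 (0.709).

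Other channel genes were then counted by family. Of 39 other voltage-gated potassium channel genes, 18 were measured, and 6 of the 18 passed the F test over pregnancy, where 37.9% of all genes did. Kcnf1, which encodes a silent pore subunit, was higher at E17.5 (7.10 ± 0.32) than at E6.5 (6.20 ± 0.31, SD), a difference of 0.90 (adjusted p = 0.00847), and higher at E6.5 than in NP (1.09, adjusted p = 0.00901). Kcnv2, another silent subunit, was lower at E10.5 than at E6.5 (-0.76, adjusted p = 0.0354) and higher at E17.5 than at E10.5 (0.84, adjusted p = 0.0165). Kcna1 and Kcna3, with F test adjusted p of 0.00494 and 0.0077, were each undetected in all mice of at least 1 time point.

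Of 17 other regulatory subunits of potassium channels, 14 were measured and 6 passed the F test (37.9% of all genes). Kcne2, which like Kcne4 encodes a single-span subunit, was undetected in all 4 NP mice (4.51 ± 0.20) and had means of 5.95 ± 0.29 in E6.5 mice, 9.87 ± 0.51 in E10.5 mice and 10.59 ± 0.37 in E17.5 mice (SD). It was higher by 3.92 log2 at E10.5 than at E6.5 (adjusted p = 6.91e-07), and at E17.5 at least 49-fold higher than in NP. The bound sets the mean of the E17.5 mice against the lowest signal of detected probes in the NP mice. Kcnab2, which encodes a beta subunit of Shaker channels, was higher at E10.5 (9.03 ± 0.38) than at E6.5 (7.86 ± 0.05), by 1.17 (adjusted p = 0.000588), while at E17.5 the difference from E6.5 was 0.01. Kcnip3 was lower at E17.5 than at E6.5 (-1.48, adjusted p = 1.06e-05). Lrrc26, which encodes a subunit of the large-conductance channel in epithelia, was undetected at E6.5 and at least 4.78-fold higher at E17.5 (adjusted p = 0.000264).

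Of 34 other calcium-activated, inward rectifier and tandem-pore genes, 22 were measured and 7 passed the F test (37.9% of all genes). Kcnk1, a tandem-pore gene, was higher at E17.5 (11.57 ± 0.26) than at E6.5 (9.01 ± 0.22, SD), by 2.56 (adjusted p = 5.4e-06). Kcnk2, which encodes a stretch-sensitive tandem-pore channel, went the other way: 6.02 ± 0.48 at E17.5, against 8.05 ± 0.29 at E6.5, a difference of -2.04 (adjusted p = 0.000345). It had been higher at E6.5 than in NP (adjusted p = 0.00364). Kcnu1 was lower (-0.93, adjusted p = 0.00347) and Kcnk10, undetected at E6.5, at least 1.78-fold higher at E10.5 than at E6.5 (adjusted p = 0.000328).

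Of 24 other voltage-gated calcium channel genes, 14 were measured and 3 passed the F test, a smaller share than the 37.9% of all genes. Cacna1g, which encodes a T-type pore, was 6.43 ± 0.53 at E10.5, against 8.04 ± 0.175 at E6.5, a difference of -1.61 (adjusted p = 3.85e-05), and Cacnb1 was lower by 0.88 (adjusted p = 0.00191). At E17.5 against E6.5 the same 2 genes were lower (-1.33 and -0.94), and 0 of the 14 were higher, beside 17% of all genes lower and 12.3% higher. Of 17 measured genes of calcium stores, store-operated entry and calcium pumps, 6 were lower and 2 higher at E10.5 than at E6.5, beside 12.6% and 9.75% of all genes. The sodium-calcium exchanger gene Slc8a1 was 8.86 ± 0.22 at E10.5, against 10.33 ± 0.16 at E6.5 (-1.47, adjusted p = 1.17e-07), and the calcium pump genes of the sarcoplasmic reticulum, Atp2a2 and Atp2a3, differed by -1.09 and -1.12 (adjusted p = 0.000123 and 0.00134). The receptor gene Itpr3, which encodes a calcium release channel, was higher at E10.5 by 1.56 (adjusted p = 4.18e-05).

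Among 23 measured anoctamin and chloride channel genes other than Ano1, 8 passed the F test (37.9% of all genes). At E17.5 against E6.5, 4 of the 23 were higher and 1 was lower, beside 12.3% and 17% of all genes. Cftr, the chloride channel gene of epithelia, was undetected at E6.5 and at least 7.84-fold higher at E17.5 (adjusted p = 1.68e-05). Ano9 was higher by 1.70 (adjusted p = 1.91e-05), Lrrc8d, which encodes a subunit of volume-regulated anion channels, by 1.34 (adjusted p = 6.68e-06), and Clca3b, undetected at E6.5, at least 1.8-fold (adjusted p = 1.92e-05). The epithelial mean was 10.13 at E17.5, against 7.21 at E6.5, and 12 of 13 epithelial genes were higher, and their part in these results was not tested.

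**Figure D5:**
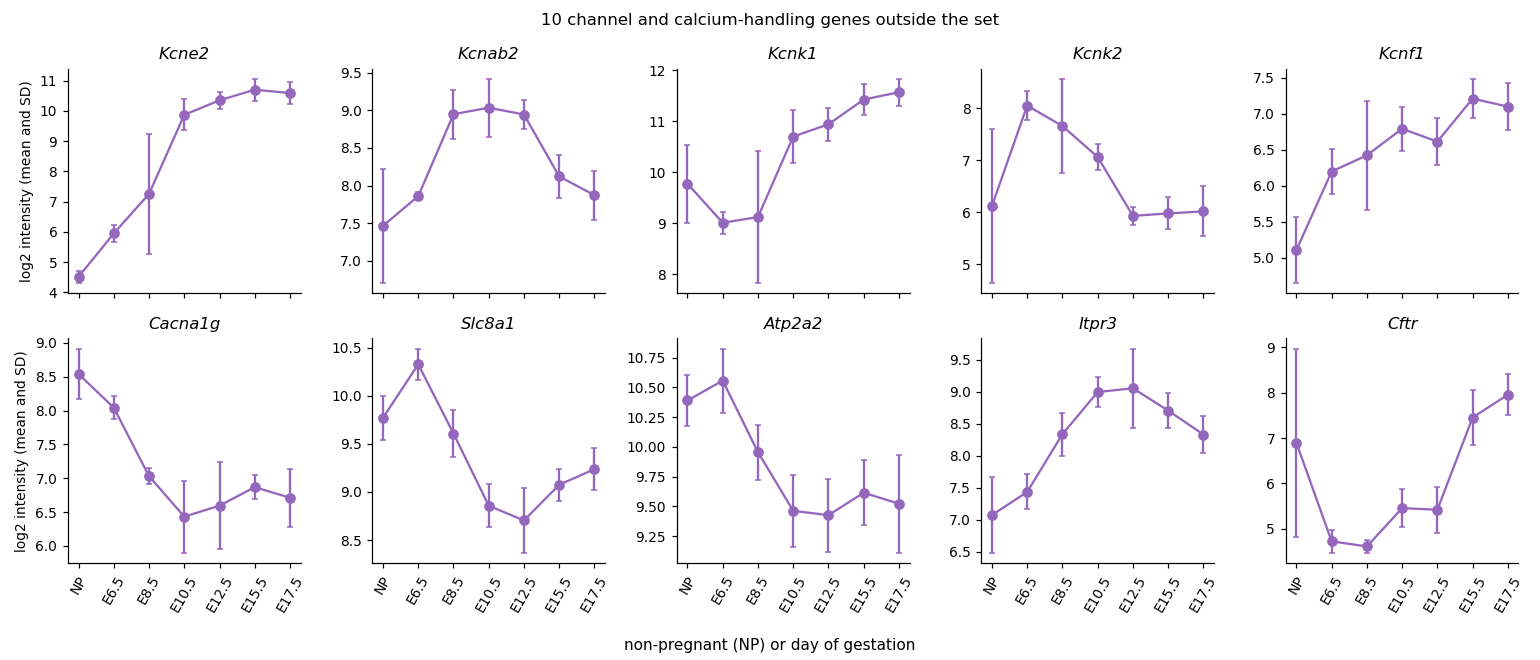
Level (log2 intensity, y axis, a scale per gene, mean and SD over mice) of 10 other channel and calcium-handling genes over NP and gestation (x axis). Kcne2 and Kcnk1 stand higher at E17.5 than at E6.5, Cacna1g, Slc8a1 and Atp2a2 stand lower at E10.5 than at E6.5, and Kcnab2 is at 8.95, 9.03 and 8.94 at E8.5, E10.5 and E12.5 and near its E6.5 level at E17.5.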

How the data were processed

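RNA of 32 FVB/N uteri was hybridised to Illumina MouseRef-8 v2 arrays, 1 per mouse. The authors deposited a linear intensity per probe and array, before normalisation, with a detection p-value from negative control beads. They also deposited log2 values, made with limma (normexp background correction by control probes, quantile normalisation). Bead summarisation and slide are not given in the sources used here. Intensities were processed anew with neqc of limma 3.58.1 in R 4.3.3 (offset 16, controls inferred from the detection p-values). The 5528 of 25697 probes whose detection p-value exceeded 0.05 on every array were removed. Member probes differ from the authors' log2 values by at most 0.00361. Gene names came from the platform annotation, where 1266 of 20169 kept probes have no single symbol, and the probe with the highest standard deviation stood for a gene.

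A linear model with 7 group means was fitted to 13439 genes, with moderated tests (2-sided), an F test over the 6 pregnant time points and Benjamini-Hochberg adjustment over all genes within each comparison. The model was tested on simulated data. The number of arrays limits the precision. A gene undetected in every mouse of a group has only a bound there: the brighter mean was set against the mean, over arrays, of the higher of the probe's own value and the lowest signal of a detected probe.

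The members, the gene lists and the comparisons over longer intervals were chosen with earlier results of these data known. All 10 members are named, and of each channel list up to 4 genes with the smallest F test adjusted p, and marker genes given as examples were chosen with their values known. Promoter windows from RefSeq (GRCm38.p6) were found for 9 of 10 members, 12 windows in all. Alternatives covered the authors' values, background correction, cyclic loess, the detection filter, probe choice, variance model, array weights, replicate block, mice in the fit, libraries high in placenta genes, and leaving out each mouse. Each mouse was 1 sample.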

Additional observations from a re-analysis of the deposited data

Results flagged for a closer look

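Of 70 sets of 4 or 5 mice (10 genes in 7 groups), 3 held a mouse set apart from the others of its group by Dixon's test at the 95% level, and chance alone sets apart about 1 in 20. Kcnh2 was 7.987 in E15.5 mouse 5, against 6.911 to 7.184 in the other 4 mice, and the gap was 0.746 of the range of the group. Kcnma1 was 6.701 in E10.5 mouse 3, against 5.903 to 6.075 in the others (gap 0.784 of the range). Kcnk3 was 4.568 in NP mouse 1, against 5.132 to 5.146 in the others (gap 0.976), and this was the NP mouse in which the probe was not detected.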

How the results depend on the processing

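Of 28 calls of a channel gene, 6 were F tests, which have no direction that could reverse. No pairwise call reversed under 11 other settings or when any 1 mouse was left out. Of the 28, 15 kept their side of the threshold throughout, among them the F test of Kcnk3, whose values lie near background. The number of the 10 genes called moved as follows. In the F test it was 6, but 7 with array weights and 4 without the 4 libraries high in placenta and yolk sac genes. At E6.5 against NP it was 2, but 3 with array weights. At E8.5 against E6.5 it was 0, but 1 with array weights and with the replicate block, and 2 with only the groups compared. At E10.5 against E8.5 it was 2, but 1 without background correction, with cyclic loess and without the detection filter, 0 without the 4 libraries, and 3 (with Kcnk3) with probes detected on at least 4 arrays, the probe of highest mean, array weights and the replicate block. At E12.5 against E10.5 it was 1, but 0 without background correction, without the detection filter, with only the groups compared and without the 4 libraries. At E10.5 against E6.5 it was 5, but 3 (Kcnh2, Kcnj8 and Abcc9) with cyclic loess and without the 4 libraries, and 4 without the detection filter and with a trended robust variance. At E17.5 against E6.5 it was 3, but 2 without the 4 libraries and 4 with the replicate block and with only the groups compared. At E17.5 against E10.5 it was 4, but 2 (Kcnj8 and Abcc9) without the 4 libraries, and at E17.5 against NP it was 5, but 3 with only the groups compared, 4 without the 4 libraries, and 6 with cyclic loess and with array weights. The cause of these changes was not tested, and where mice were left out the fit also had fewer mice. Leaving out each mouse in turn gave 2 to 3 at E6.5 against NP, 0 to 2 at E10.5 against E8.5, 0 to 1 at E12.5 against E10.5, 3 to 5 at E10.5 against E6.5, 1 to 4 at E17.5 against E6.5, 3 to 4 at E17.5 against E10.5, 4 to 5 at E17.5 against NP and 5 to 6 in the F test.

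Replicate numbers did not pair the mice: same-numbered mice of different groups had a median correlation of deviations of 0.0421 (-0.41 to 0.427), and 7 of 32 mice correlated best with their own number, so the replicate block says nothing of the design. Without background correction differences were smaller, as for Kcnma1 at E6.5 against NP (0.48 against 1.24) and Kcnh2 at E10.5 against E6.5 (-1.18 against -1.84), with the calls kept. Over all genes, calls numbered 1102 at E6.5 against NP but 612 with only the groups compared. They numbered 516 at E8.5 against E6.5 but 1111 with array weights, and 623 at E10.5 against E8.5 but 1096 with array weights, 993 with the replicate block and 368 without the 4 libraries. They numbered 182 at E12.5 against E10.5 but 492 with array weights and 117 without the 4 libraries, 193 at E15.5 against E12.5 but 385 and 116 under the same settings, and 60 at E17.5 against E15.5 but 166 with array weights and 12 with only the groups compared. With cyclic loess the higher share of calls was 63.2% against 48.6% at E10.5 against E8.5, 81.2% against 68.3% at E17.5 against E15.5, 53.1% against 41.9% at E17.5 against E6.5 and 54.5% against 42.4% at E17.5 against NP, and without background correction it was 83.7% at E17.5 against E15.5. Slide as a block was not run. Probes near the detection limit, those of Kcnk3 and Cacna1c, bear no fold. With 4 or 5 mice a group, differences of any size within the intervals given remain compatible with the data.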
